A study of Drosophila melanogaster with 4 samples.

Results

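The genes that encode the proteins of the cytosolic ribosome were examined in the heads of aged flies. They were chosen by symbol, as every gene named RpL or RpS followed by a digit or P, together with sta. The rule also names sop, the older symbol of RpS2, but the count table lists that gene as RpS2. In all, 93 of the 13926 genes in the table belonged to this set. Expression did not enter the rule, although the set was chosen with earlier results of these data known. Of the 93, 83 had at least 100 counts in every library and are the ones described by their fold changes: 34 of the small 40S subunit and 49 of the large 60S subunit.

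RNA was isolated from pooled heads of D50 male flies and sequenced after selection of polyadenylated mRNA. There were 2 libraries from NelfA*/+ flies, heterozygous for the P-element allele Nelf-A KG09483, and 2 from control siblings (+/+). The mutant line had been backcrossed repeatedly to w1118 males, so both genotypes came from 1 cross and shared that background, and the mutant is represented by a single insertion allele. The study's methods call the libraries biological replicates, and the p-values below measure the spread between them.

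The ribosome makes every protein of the cell from mRNA. Its small subunit reads the message and its large subunit joins the amino acids, each being built of ribosomal RNA and one copy of nearly every ribosomal protein, so the proteins are needed in matched amounts. In Drosophila, losing one copy of many of these genes gives the Minute phenotype, with slow development and short thin bristles. Because their mRNAs are abundant and thought of as steady, some of them, RpL32 above all, serve as reference genes in RT-PCR. The RT-PCR of the study itself was normalized to act5C.

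The 4 libraries held between 42985746 and 45172099 counts on genes. Nelf-A itself had 3598 and 3365 normalized counts in control replicates 1 and 2, and 2386 and 2398 in NelfA*/+ replicates 1 and 2, so the labels and the targeted gene pointed the same way. Its log2 fold change was -0.54 ± 0.07 (SE, n = 2 per genotype; adjusted p = 0.0411, edgeR quasi-likelihood test). That call was lost in edgeR when low counts were not filtered (adjusted p = 0.0584) and when the replicate numbers entered as a block (adjusted p = 0.0537). Normalized counts are counts scaled to a common library size by TMM.

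The tissue label was checked against marker lists. Photoreceptor genes such as ninaE, the major rhodopsin, and neuronal genes such as nSyb and brp were abundant in every library, while Syx1A, alrm, moody, Arr2 and ninaA were listed at 0 throughout and elav had at most 8 counts. The libraries of 1 genotype were not alike in cell-type markers. Summed over the 6 neuronal markers, the level was 198068 and 136793 normalized counts in control replicates 1 and 2 against 178022 and 200879 in NelfA*/+ replicates 1 and 2. Over the 10 gut markers it was 21393 and 18050 against 49766 and 20419. Most of the control sums came from Amy-p, with 20856 and 18291 counts against 13674 and 15203. Of the 8 gut markers tested in edgeR, 7 had log2 fold changes above 0, and Amy-p had -0.38. Jon65Aiii, for example, had 4 and 4 counts in the controls against 3283 and 1546 in NelfA*/+. Of the gut markers 2 were called higher in NelfA*/+ by edgeR, 6 by DESeq2 and 5 with the replicate block. All 7 head fat body markers had log2 fold changes below 0, with 0 called by edgeR, 4 by DESeq2 and 2 with the replicate block. Over all genes, edgeR called 1.87%, DESeq2 8.98% and the fit with the replicate block 3.09%, in either direction. The 8 testis markers summed to between 161 and 248, with nos at 0 in every library. For any of these markers, a 0 alone does not show that the mRNA was absent. In all, 2463 genes were listed at 0 in every library, among them all 1831 that lie inside another counted gene.

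The 83 ribosomal protein genes were among the most abundant mRNAs of the head. Per kilobase of exon, their median level was 35571 normalized counts, against 687 for the 8012 other tested genes with 100 or more counts and a known length, a ratio of 51.8. Of the 100 genes with the highest level per kilobase, 44 were ribosomal protein genes. The highest was RpL21 with 82147 normalized counts per kilobase, and RpLP1 of the stalk (74031), RpL23 (71822) and the zinc-binding small-subunit protein RpS29 (62751) were also among the 5 highest members.

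The single-copy members of both subunits covered similar ranges. The 65 single-copy members lay between 11735 and 82147 normalized counts per kilobase, and the median was 37653 for the 26 of the 40S subunit and 39619 for the 39 of the 60S subunit. The interquartile range was 28117 to 45479 for 40S and 26909 to 50239 for 60S, so the subunits overlapped almost fully. The members below this range were second copies and -like genes. These were RpL24-like (8465 normalized counts per kilobase), RpS14b (8449), RpL34a (8146), RpS15Ab (1661) and RpLP0-like (761). Exon lengths were taken from all annotated exons of a gene, so a gene with an exon rarely used has a level per kilobase that is too low.

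**Figure D1:**
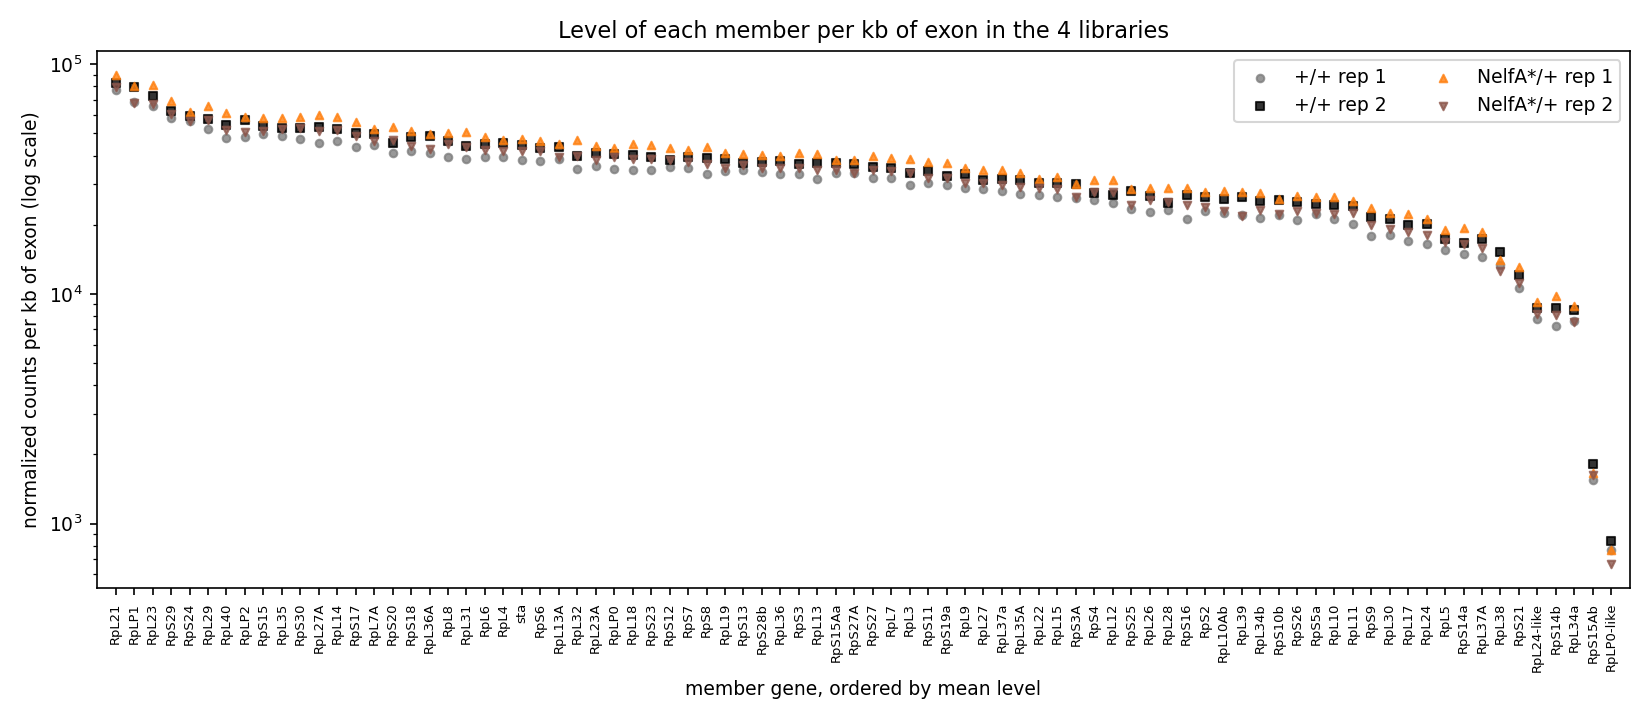
Normalized counts per kilobase of exon (log scale) for 82 of the 83 ribosomal protein genes, ordered by their mean, with 1 point per library: grey circles and black squares for control siblings, orange and brown triangles for NelfA*/+ flies. The levels decline gradually from RpL21 at 82147 and drop steeply to RpS15Ab at 1661 and RpLP0-like at 761.

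The study compared the genotypes to find transcripts that differ when the dosage of NELF-A, part of a complex that holds RNA polymerase II near the start of genes, is lowered. None of the 83 passed the test. In edgeR, 0 of 83 had an adjusted p below 0.05 and 0 of 83 an unadjusted p below 0.05, whereas over all 9609 genes tested 1.87% were called (0.645% higher and 1.23% lower in NelfA*/+) and 20.3% had an unadjusted p below 0.05. DESeq2 gave 0 of 83 at both thresholds, beside 8.98% and 16% of all genes, and limma-voom gave 0 of 83, beside 1.23% and 19.3%. A block on the replicate number gave 0 of 83 at both thresholds, beside 3.09% and 15% of all genes, although the numbers are not known to pair the libraries. With the pairing crossed, a fit added after the data were seen, 0 of 83 were called where 8.29% of all genes were, and 7 of 83 had an unadjusted p below 0.05 where 26.4% did. The smallest adjusted p of edgeR among the members was 0.371, for RpS20.

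The differences were small and nearly all of one sign. The log2 fold change was above 0 for 80 of the 83 members, with a median of 0.11 (1.08-fold), beside a median of 0.01 over all genes tested and 51.0% above 0 among the other genes with 100 or more counts. The count above 0 was 77 with library size alone, 47 without control replicate 1 and 42 without NelfA*/+ replicate 1. Across members the log2 fold changes had an SD of 0.06, against 0.26 among the 1334 other genes that reached the members' level of expression. The 95% intervals were wide in relation to this, with a median from -0.22 to 0.43 and outer limits of -0.43 and 0.55, so a change of 1.08-fold in a single member was not detectable in 2 libraries against 2. Because the tissue was bulk heads, a difference in RNA per cell and a difference in the number of cells of a type cannot be told apart.

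**Figure D2:**
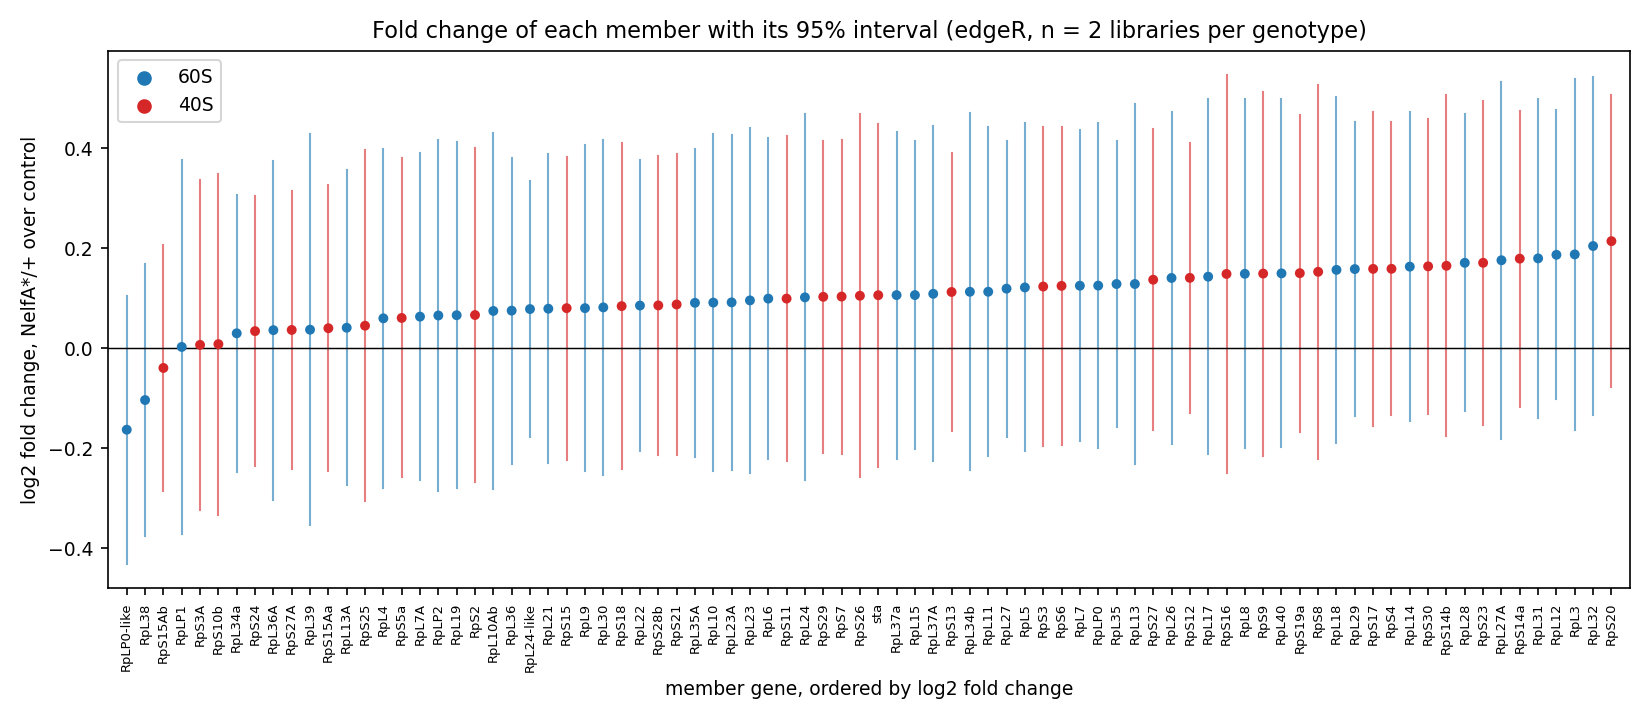
Log2 fold change (NelfA*/+ over control siblings, edgeR) of 82 of the 83 members in increasing order, with bars for the 95% interval, blue for 60S and red for 40S proteins. All 82 intervals plotted include 0, and 79 of the 82 points lie above it.

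Most of the variation among the libraries lay within the genotypes. Control replicate 2 was above control replicate 1 in 83 of 83 members, and NelfA*/+ replicate 1 was above NelfA*/+ replicate 2 in 83 of 83. Among other genes with 100 or more counts these shares were 50.5% and 49.7%, and 32.5% had both. The median shift was 0.18 on the log2 scale (1.14-fold) within the control siblings and 0.20 (1.15-fold) within NelfA*/+, both larger than the median difference between the genotypes. Within control siblings the shift was largest for RpS16, with 0.34, and within NelfA*/+ it ran from 0.03 for RpS15Ab to 0.35 for RpL39.

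Ranked by level, 70 of the 83 members had the same order of libraries, with control replicate 1 lowest, then NelfA*/+ replicate 2, control replicate 2 and NelfA*/+ replicate 1. Control replicate 1 was the lowest library in 77 members and NelfA*/+ replicate 1 the highest in 79. The genotypes did not overlap in 5 members, RpL12, RpL28, RpS4, RpS20 and RpS30, which were higher in NelfA*/+. No member was lower without overlap. Of all tested genes with 100 or more counts, 25.4% were higher and 26.7% lower without overlap. Across the 83 members the shifts within the genotypes had a Pearson r of 0.36. This r is a description over genes that share the same 4 libraries, and it was 0.27 over the other genes and 0.68 over the 1334 at the members' level.

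**Figure D3:**
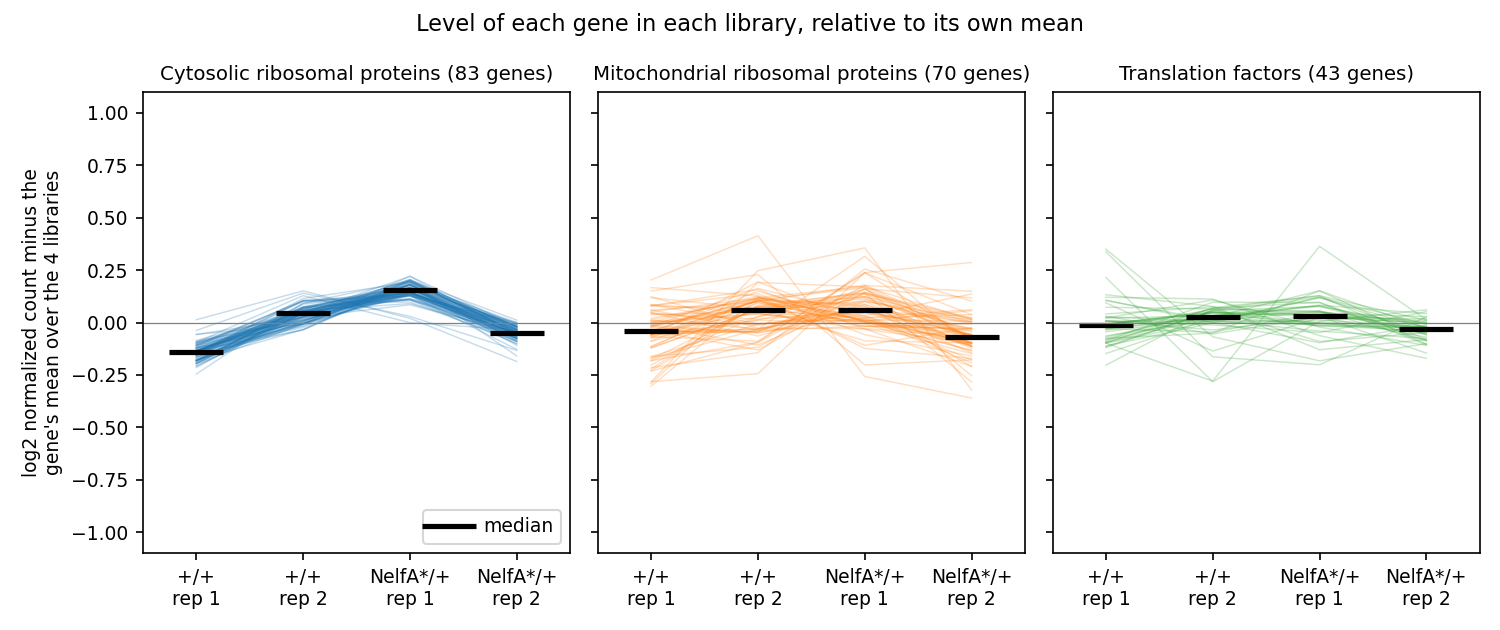
Log2 normalized count of each gene in each library minus that gene's mean over the 4 libraries, for 83 cytosolic ribosomal proteins, 70 mitochondrial ribosomal proteins and 43 translation factors, with 1 line per gene and a black bar for the median. The cytosolic lines form a tight band with medians of -0.14 and 0.04 for +/+ and of 0.16 and -0.05 for NelfA*/+, and the other lists are more scattered around 0.

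**Figure D4:**
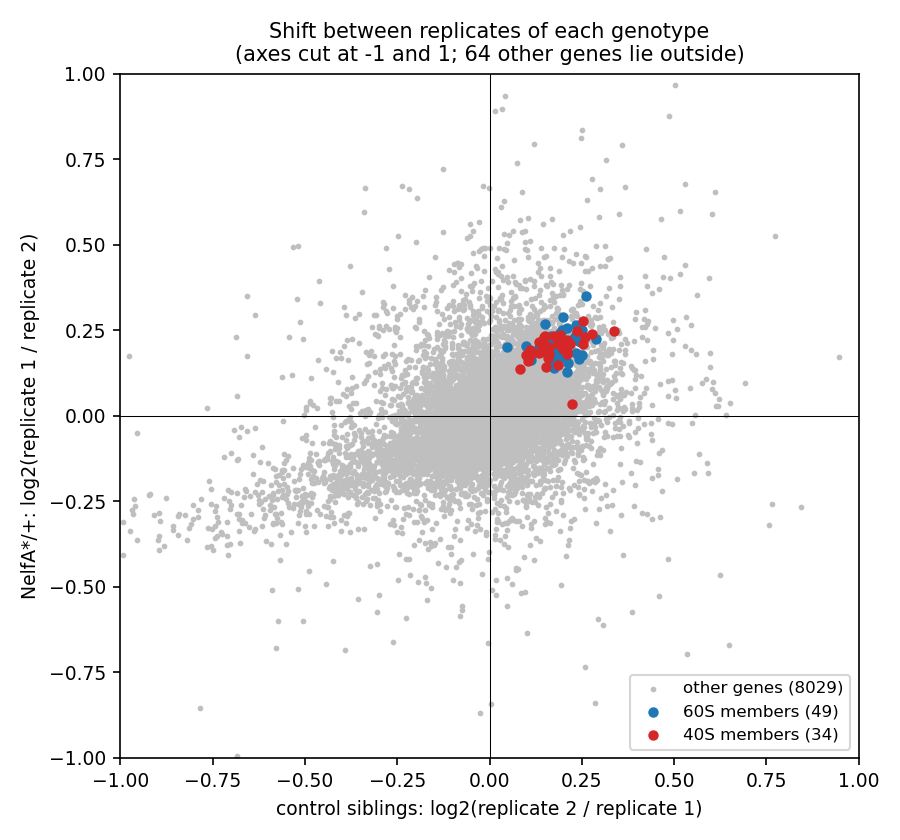
Log2 ratio of replicate 2 to replicate 1 in control siblings (x axis) against that of replicate 1 to replicate 2 in NelfA*/+ flies (y axis) for 83 members (blue, 60S; red, 40S) and 8029 other genes (grey). All 83 members fall in the upper right field, which held 32.5% of the other genes.

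The summed output of the set showed the same order. Ribosomal protein genes took 5.51% and 6.52% of gene counts in control replicates 1 and 2, and 6.79% and 5.92% in NelfA*/+ replicates 1 and 2. The means were 6.02% ± 0.720 and 6.35% ± 0.617 (SD, n = 2 per genotype), and the groups overlapped. The difference of 0.338 percentage points had p = 0.667 in a two-sided exact permutation test, whose smallest possible p is 0.333 in this design. Without control replicate 1 the difference was -0.171 points and the median log2 fold change of the members 0.014, and without NelfA*/+ replicate 1 they were -0.0978 points and 0.0050, so the sign of the share and most of the size of the median rested on these libraries.

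Some measured properties of the libraries varied along with these shifts, and some only in part. NelfA*/+ replicate 1, the highest library, had the most gut marker counts, but control replicate 2 had fewer of them than control replicate 1. Within each genotype the neuronal marker sum was lower in the library where the members were higher. Its order over all libraries was not the reverse of theirs, as control replicate 2 was lowest and NelfA*/+ replicate 1 next. The head fat body sum did have the reverse order, with 277250 and 218053 in control replicates 1 and 2 and 211762 and 225556 in NelfA*/+ replicates 1 and 2. Within each genotype the glial sum was also lower, and the photoreceptor and testis sums higher, in the library where the members were higher. The muscle sum was higher there only within control siblings. Among the other genes, the shortest of 4 classes by exon length (162 to 1429 bp) had median shifts of 0.07 within control siblings and 0.09 within NelfA*/+, and the longest class (3925 to 71820 bp) -0.11 and -0.09. The members, with a median exon length of 927 bp, had 0.18 and 0.20. The part of marker content and of gene length in the members' shifts was not tested.

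By role, the 40S and 60S proteins gave nearly equal values. The median log2 fold change was 0.11 for the 34 of the 40S subunit, of which 33 were above 0, and 0.10 for the 49 of the 60S subunit, of which 47 were above 0. The 18 members that are duplicated or -like genes had a median of 0.09 and the 65 single-copy members 0.11.

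Among the 40S proteins, RpS20, which sits in the head of the small subunit, had the largest log2 fold change of any member. The gene (FBgn0019936; BDGP6 chromosome arm 3R, 20822181 to 20823356) had 23079 and 25530 normalized counts in control replicates 1 and 2, and 30044 and 26345 in NelfA*/+ replicates 1 and 2. Both NelfA*/+ libraries were above both controls, with the second NelfA*/+ library only slightly so. The log2 fold change was 0.21 ± 0.11 (SE, n = 2 per genotype; adjusted p = 0.371, edgeR), and 7.80% of its exon length overlaps the gene CG17272.

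RpS6, the small-subunit protein phosphorylated through the TOR pathway, had 45360 and 51572 normalized counts in control replicates 1 and 2, and 55570 and 50115 in NelfA*/+ replicates 1 and 2. The groups overlapped, and the log2 fold change was 0.12 ± 0.12 (SE). For sta, which encodes the small-subunit protein related to the laminin receptor, the values were 51355 and 59357 against 63288 and 55873, again with overlap and a log2 fold change of 0.11 ± 0.13 (SE). RpS27A, which is made as a fusion with ubiquitin, had 19818 and 21764 against 22675 and 19976, a log2 fold change of 0.04 ± 0.11 (SE).

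Among the 60S proteins, the reference gene RpL32 (FBgn0002626; BDGP6 chromosome arm 3R, 30045229 to 30046161) moved with the rest. It had 27930 and 31875 normalized counts in control replicates 1 and 2, and 37320 and 31591 in NelfA*/+ replicates 1 and 2. NelfA*/+ replicate 1 stood highest and the other NelfA*/+ library fell between the controls. Its log2 fold change of 0.20 ± 0.13 (SE; 95% interval -0.13 to 0.54; adjusted p = 0.460, edgeR) was the second largest of the set.

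RpL3, a core protein near the peptidyl transferase centre, had 66526 and 75064 normalized counts in control replicates 1 and 2, and 86215 and 75046 in NelfA*/+ replicates 1 and 2. RpL12 of the stalk base had 28758 and 31208 against 36307 and 31954, and RpL31, at the exit of the peptide tunnel, 23786 and 27023 against 30948 and 26603. The log2 fold changes were 0.19 for RpL3, 0.19 for RpL12 and 0.18 for RpL31, and among these RpL12 alone had groups that did not overlap. RpL40, the other ubiquitin fusion, had a log2 fold change of 0.15 ± 0.14 (SE).

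The stalk binds the elongation factors during each round of translation and is formed by RpLP0 with RpLP1 and RpLP2, which are present in more than one copy per ribosome. RpLP0 had 46677 and 54008 normalized counts in control replicates 1 and 2, and 57358 and 52464 in NelfA*/+ replicates 1 and 2 (log2 fold change 0.13 ± 0.13, SE). RpLP2 had 29059 and 34365 against 35697 and 30675 (0.07 ± 0.14, SE). RpLP1 (FBgn0002593; BDGP6 chromosome arm 2L, 419952 to 420864) had 52674 and 60931 against 61956 and 51860, so each genotype held 1 high and 1 low library and the log2 fold change was 0.0027 ± 0.15 (SE).

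In the TMM fit 3 of the 83 members had a log2 fold change below 0 (6 with library size alone), and none of the 3 passed the test. RpL38, a large-subunit protein whose loss in mice alters the body plan, lies in the heterochromatic part of arm 2R (FBgn0040007; BDGP6, 4515388 to 4516458). It had 13573 and 15355 normalized counts in control replicates 1 and 2, and 14217 and 12707 in NelfA*/+ replicates 1 and 2, a log2 fold change of -0.10 ± 0.11 (SE; adjusted p = 0.645, edgeR).

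RpLP0-like (FBgn0033485; BDGP6 chromosome arm 2R, 10098518 to 10099590) resembles a yeast factor, Mrt4, that takes the place of the stalk protein during assembly of the large subunit. Its normalized counts were 726 and 799 in control replicates 1 and 2, and 729 and 633 in NelfA*/+ replicates 1 and 2, with a log2 fold change of -0.16 ± 0.10 (SE; adjusted p = 0.459, edgeR). RpS15Ab had 1125 and 1312 against 1200 and 1172, and -0.04 ± 0.10 (SE). All 3 groups of values overlapped between the genotypes.

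Since the members shared the shifts between libraries, their levels were also compared relative to one another. In each library the median log2 deviation of the 65 single-copy members was subtracted. This scaling was chosen with the shared shift in view and gives no test. It lowered the median SD of a single-copy member over the 4 libraries from 0.13 to 0.03 on the log2 scale, so the proportions among the ribosomal protein mRNAs differed less between libraries than their amount did. By construction the median difference between the genotypes is then close to 0.

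On this relative scale 5 members differed by more than 0.1 in log2 between the genotypes, and their groups did not overlap. RpLP0-like had 802 and 776 rescaled counts in control replicates 1 and 2 and 654 and 653 in NelfA*/+ replicates 1 and 2, a log2 difference of -0.27. RpL38 had 14997 and 14917 against 12753 and 13127, a difference of -0.21. On this scale the libraries of 1 genotype lay close together and apart from the other genotype in both genes. Before the rescaling the genotypes overlapped in both, with log2 fold changes of -0.16 and -0.10. The rescaling lowers the difference of every member by the same amount. Both genes were picked as the lowest of the 83 on this scale, so their separation is no test of a genotype effect.

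The other 3 were RpS15Ab (-0.14), RpLP1 (-0.11) and RpS20 (0.11), followed by RpL32 with 0.10. RpL32 had 30861 and 30964 rescaled counts in control siblings against 33477 and 32635 in NelfA*/+. Non-overlapping groups were common at such small spreads: 18 of the 83 members (21.7%) lay higher and 25 (30.1%) lower in both NelfA*/+ libraries. With the same centring, 6.29% of all tested genes with 100 or more counts lay higher and 32.2% lower. The count of such members is therefore no result about them.

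**Figure D5:**
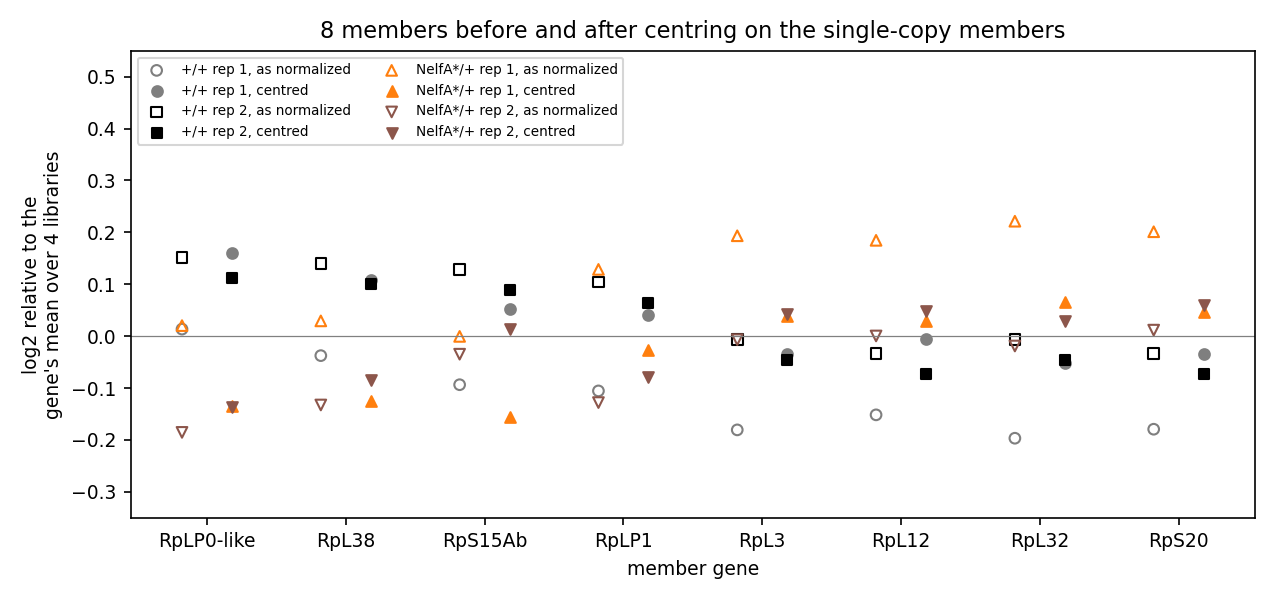
Log2 level relative to the gene's mean over the 4 libraries for 8 members, with open symbols as normalized by TMM and filled symbols after the median of the 65 single-copy members was subtracted in each library. After subtraction RpLP0-like and RpL38 lie higher in both control libraries, with log2 differences of -0.27 and -0.21, and RpS20 and RpL32 lie lower in them, with 0.11 and 0.10.

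Several ribosomal proteins of Drosophila are encoded by more than one gene, and in the heads one copy usually dominated. Near-identical copies can share reads, so the split between copies is uncertain; between 6.03% and 6.84% of the reads in the summary lines and on genes were set aside as aligned to more than one place. RpS14a and RpS14b lie side by side on the X chromosome (BDGP6, 7933742 to 7934677 and 7934898 to 7935792). RpS14a had 13131 and 14566 normalized counts in control replicates 1 and 2 and 16944 and 14415 in NelfA*/+ replicates 1 and 2, and RpS14b had 4340 and 5172 against 5844 and 4821. The log2 fold changes were 0.18 ± 0.11 and 0.16 ± 0.13 (SE), nearly the same for both copies.

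The expressed copies of other pairs were RpS5a, RpS10b, RpS19a, RpS28b, RpL10Ab and RpL37a, which the annotation now calls RpL37-1. Their log2 fold changes lay between 0.01 (RpS10b) and 0.15 (RpS19a). Both copies were expressed for RpS15Aa (0.04) and RpS15Ab (-0.04), and for RpL34b (0.11) and RpL34a (0.03). Of the members with a -like relative, RpL24 had 0.10, RpL22 0.09 and RpL7 0.13, and RpL24-like, related to a yeast assembly factor, had 0.08.

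The 10 members below 100 counts were second copies and -like genes, with RpL41 the exception. RpS5b had 42 to 58 normalized counts in every library and a log2 fold change of 0.08 ± 0.30 (SE). RpL7-like, RpL22-like, RpL37b, RpS19b, RpS28a and RpS28-like had at most 6 counts in any library, and RpL10Aa, RpL41 and RpS10a were listed at 0 in all 4. For 2 of these the zeros cannot be read as absence of mRNA. RpL41, which encodes the shortest ribosomal protein, lies inside the gene NaCP60E, and RpS10a lies inside tau. All 1831 counted genes that lie inside another counted gene were listed at 0 in every library, compared with 623 of the 12063 that do not. RpL7-like shares 98.8% of its exon length with CG34164.

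Translation needs more than the ribosome, and the partners of the ribosomal proteins were examined as lists. Of 32 initiation factors tested, 0 were called, 20 had log2 fold changes above 0 and 12 below, and the median was 0.01. Their smallest p was that of eIF2Bdelta, a subunit of the factor that recharges eIF2 (-0.21 ± 0.07, SE; adjusted p = 0.195, edgeR). Of 11 elongation and termination factors 0 were called, with a median of -0.0096; eEF1alpha1, which brings aminoacyl-tRNA to the ribosome, had 339403 and 345359 normalized counts in control replicates 1 and 2 and 397227 and 351142 in NelfA*/+ replicates 1 and 2. At an unadjusted p below 0.05 edgeR gave 1 gene in each of these lists.

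Of 29 ribosome biogenesis genes, 6 had log2 fold changes above 0 and 23 below, with a median of -0.17. In edgeR 0 of them passed the test and 6 had an unadjusted p below 0.05, beside 20.3% of all genes tested. The leading gene was pit, a DEAD-box helicase of the nucleolus, with 895 and 968 normalized counts in control replicates 1 and 2 and 661 and 665 in NelfA*/+ replicates 1 and 2. The groups stood apart, as they did in this direction for 26.7% of all tested genes with 100 or more counts. Within the list 16 of 29 were lower without overlap. In the other direction it was 1 of 29, beside 25.4% of all such genes. The log2 fold change of pit was -0.49 ± 0.08 (SE), with an adjusted p of 0.0585 in edgeR and 0.00461 in DESeq2. Of all genes, DESeq2 called 8.98%. The nucleolar gene wcd followed with -0.48 ± 0.13 (SE; adjusted p = 0.133, edgeR).

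All 9 tested genes of the RNA polymerase I list, whose enzyme transcribes the ribosomal RNA precursor, had log2 fold changes below 0 with a median of -0.16. In edgeR 0 passed the test and 1 had an unadjusted p below 0.05, and 1.23% of all genes tested were called lower. Of the 8 with 100 or more counts, 6 were lower without overlap and 0 higher, beside 26.7% and 25.4% of all such genes. The member RpLP0-like had a log2 fold change of the same size, -0.16. The 14 ribosome-associated factors tested, among them the nascent chain factor Nacalpha (0.12 ± 0.10, SE), had a median of 0.0053 with 0 called in edgeR and 0 with an unadjusted p below 0.05.

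Of 16 tested genes of the TOR and Myc pathways, which set the rate of ribosome production, 1 was called in edgeR, beside 1.87% of all genes tested. An unadjusted p below 0.05 was found for 4, beside 20.3% of all genes tested. The gene called was gig, the fly Tsc2 and an inhibitor of TOR. It had 2543 and 2686 normalized counts in control replicates 1 and 2 and 5831 and 6216 in NelfA*/+ replicates 1 and 2. Its groups did not overlap, as in this direction for 25.4% of all tested genes with 100 or more counts. Its log2 fold change was 1.20 ± 0.07 (SE; adjusted p = 0.00772, edgeR), and with either control library left out edgeR called 0 genes of this list. Of the others 12 had log2 fold changes below 0, such as rictor of the TOR complex (-0.19 ± 0.07, SE; adjusted p = 0.212, edgeR) and the TOR activator Rheb (-0.18 ± 0.06, SE; adjusted p = 0.229, edgeR).

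The mitochondrial ribosome, which is built from a separate set of nuclear genes, gave a comparison with genes of like function. Of its 73 counted genes, 71 were tested and edgeR called 0, whereas DESeq2 called 2. At an unadjusted p below 0.05 edgeR gave 10 of them, beside 20.3% of all genes tested. They split evenly, 35 above 0 and 36 below, with a median of -0.0061. Their largest changes went both ways, as in mRpL39 (-0.62 ± 0.10, SE; adjusted p = 0.0637, edgeR) and mRpL20 (0.52 ± 0.11, SE; adjusted p = 0.0887, edgeR). Among 70 of them with 100 or more counts, 46 shared both within-genotype shifts of the cytosolic genes, with smaller medians of 0.08 and 0.12. Of all genes at that level other than the cytosolic members, 32.5% had both. Both were also shared by 20 of 32 initiation, 7 of 11 elongation and termination, and 10 of 14 ribosome-associated factors. Fewer did so among ribosome biogenesis genes (6 of 29), RNA polymerase I genes (3 of 8) and TOR and Myc genes (0 of 16).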

How the data were processed

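RNA-seq counts were taken for all 4 libraries. According to the study's methods the reads were trimmed with Trim Galore, aligned to the D. melanogaster genome (BDGP6) with STAR 2.5 and counted with HTSeq-count. The deposited table gives raw counts, that is unscaled reads assigned to each gene. The mode and strand setting of the counting are not given in the sources used here, so reads of overlapping genes cannot be assigned with certainty; ambiguous reads made up 7.47% to 8.00% and reads on no gene 2.91% to 3.38% of the reads listed, and these summary lines stayed out of library sizes and tests. The authors also deposited the results of their DESeq2 comparison (mean, fold change, statistic and p-values), which were not used.

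The main test was edgeR 4.0.16 in R 4.3.3: filterByExpr on genotype, TMM, glmQLFit and glmQLFTest without covariates, with p-values adjusted over 9609 genes by Benjamini and Hochberg's method and called below 0.05. The study used DESeq2, which was an alternative here (1.42.0), as was limma-voom (limma 3.58.1). Fold changes are described for members with at least 100 counts in every library. The test was tested on simulated data. The share of counts was compared with an exact permutation test. Gene positions and exon lengths came from the Ensembl annotation of BDGP6, in which 13894 of 13926 gene names were matched, 12783 by symbol and 1111 by an older symbol; this release is later than the one the reads were counted with.

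The members, the gene lists and the marker lists were chosen with earlier results of these data known. Named members were the 5 largest log2 fold changes in each direction, the 5 highest and 5 lowest levels per kilobase, stalk proteins, ubiquitin fusions, RpL32, sta, RpL41, RpS6 and all duplicated or -like genes, and up to 5 genes of each other list by p; 1 member that the rule would name is not reported here. Other members were named after their values were seen: RpL28, RpL39, RpS4, RpS16, RpS30, and eEF1alpha1, Nacalpha and the markers by their function.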

Additional observations from a re-analysis of the deposited data

How the results depend on the processing

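With 2 libraries per genotype the precision was set by the spread between libraries rather than by depth, the median SE of a member being 0.13 on the log2 scale. No member passed the threshold in any fit across all alternatives run. The number called over all genes was 180 in edgeR, 911 in DESeq2 and 297 with a block on replicate number. The median log2 fold change of the members was 0.10 or 0.11 under the other normalizations, filters and tests, except for 0.08 with library size alone, where the median of all genes moved to -0.014. Leaving out each library in turn, which leaves 1 genotype with a lone library assumed to vary like the others, it ranged from 0.0050 to 0.20, and the difference in share from -0.171 to 0.847 percentage points.

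The replicate numbers come from the labels, which do not say that same-numbered libraries belong together, and same-numbered libraries deviated with r = -0.12 over 8365 genes and -0.36 over the 83 members. Ribosome biogenesis genes, with 0 called in edgeR, had 1 called in DESeq2, with robust dispersions or at 100 or more counts, and mitochondrial ribosomal proteins had 2, 1 and 1. With the replicate block 0 members were called and the median was 0.10. The crossed pairing, added after the data were seen, called 0 members, had 7 with an unadjusted p below 0.05, and called 797 genes in all.

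Of the members with 100 or more counts that the naming rule covers and that are reported here, 17 changed sign when 1 library was left out. Their log2 fold changes ranged from -0.149 to 0.0758 for RpS15Ab, -0.0903 to 0.141 for RpL34a, -0.0165 to 0.167 for RpL24-like, -0.0441 to 0.223 for RpL23, -0.131 to 0.125 for RpLP1, -0.012 to 0.165 for RpL21, -0.0537 to 0.191 for RpLP2, -0.0571 to 0.125 for RpS27A, -0.0583 to 0.17 for RpS5a, -0.1004 to 0.122 for RpS10b, -0.037 to 0.118 for RpS15Aa, -0.0094 to 0.175 for RpS28b, -0.0764 to 0.211 for RpL10Ab, -0.0025 to 0.175 for RpL22, -0.0386 to 0.253 for RpL24, -0.0168 to 0.243 for RpL34b and -0.0062 to 0.211 for RpL37a. With library size alone RpLP1 had -0.0247 and RpS10b -0.0192. The cause was not tested.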

Other observations

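The ribosomal protein genes are scattered over the genome, and the small positive differences were found on every large chromosome arm. The median log2 fold change was 0.11 for 15 members on X, 0.10 for 17 on 2L, 0.08 for 18 on 2R, 0.14 for 14 on 3L and 0.11 for 18 on 3R. All arms were measured in the same libraries, so their shared sign is a description and no separate support for a difference between the genotypes. With TMM, all members on X, 2L, 3L and 3R were above 0 (with library size alone RpS10b on X and RpLP1 on 2L were not), and the 3 below 0 all lie on 2R. RpS3A, on chromosome 4 (BDGP6, 65225 to 67207), had 35194 and 40694 normalized counts in control replicates 1 and 2 and 40600 and 35644 in NelfA*/+ replicates 1 and 2, with a log2 fold change of 0.0067 ± 0.13 (SE). It was grouped with RpL5, RpL15 and RpL38, which lie in or next to pericentromeric heterochromatin, after the values were seen. These 4 had a median of 0.06, with RpL5 at 0.12 and RpL15 at 0.11, so they were not alike.

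Many ribosomal protein genes carry small nucleolar RNAs in their introns, which guide modification of the ribosomal RNA. At least 1 small nucleolar RNA lies inside 29 of the 83 members, and RpS5a holds 14. The median log2 fold change was 0.11 for these 29 and 0.10 for the 54 without one, and the shifts within the genotypes were 0.17 and 0.19 against 0.18 and 0.21. Across the 83 members Spearman's rho between the level per kilobase and the log2 fold change was 0.13, a description over genes measured in the same libraries.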
